A study of Homo sapiens with 12 samples.

Results

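The genes described here are the protein-coding ZNF genes that lie on human autosomes other than chromosome 19. They are every protein-coding RefSeq gene (assembly GRCh38.p14) whose symbol is ZNF followed by a number, on chromosomes 1 to 18 and 20 to 22, with a gene body under 500 kb. This gave 253 of the 517 coding ZNF genes of the table. Chromosome 19 held 250 and chromosome X 12, and 2 were 500 kb or longer. The 253 genes were set beside all 17260 coding genes under 500 kb of the same 21 autosomes, themselves included.

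The symbol ZNF is given mainly to genes for proteins with C2H2 zinc fingers, short folds held together by a zinc ion that read DNA in series, so that an array of fingers can recognise a long sequence. Many of these proteins also carry a KRAB domain, which recruits the co-repressor TRIM28 and through it the histone methyltransferase SETDB1 and HP1 proteins, and they silence transposable elements. The genes multiplied by tandem duplication, which left them in clusters, and in many cell types such clusters are themselves packed in heterochromatin. Others, mostly without a KRAB domain, are single genes for regulators of development, of splicing or of ribosomes.

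The study mapped nucleolus-associated domains (NADs), the chromosomal DNA that co-purifies with nucleoli, in H9 cells, an established human embryonic stem cell line, so that all values come from 1 line. Naive H9 cells were grown in RSeT medium and primed H9 cells in mTeSR medium, and neither had any other treatment. In both, nucleoli were pelleted from crosslinked, sonicated cells, and nucleolar DNA was sequenced beside whole-cell DNA. The 12 libraries (3 each of naive nucleolar, naive whole-cell, primed nucleolar and primed whole-cell DNA) entered 1 list of regions per state, without scores. A value therefore has no error across cultures, no test between naive and primed cells could be run, and the standard deviations below are spreads over genes or clusters. Region limits lie on a 10 kb grid, the read depth is unknown, and differences of depth or of region calling cannot be told apart from differences between the cells.

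Most of the ZNF genes touched NADs in both states, and on average more of the gene body lay in primed than in naive regions. At least 1 base of the gene body lay in a naive region for 204 of the 253 genes, or 80.6%, against 76.1% of all coding genes. In primed regions the count was 225, or 88.9%, against 79.7% of all coding genes. Regions of both lists touched 188 genes (74.3%, against 63.1% of coding genes) and neither list touched 12 (4.74%, against 7.33%). Naive regions alone touched 16 genes (6.32%, against 13% of coding genes), and primed regions alone touched 37 (14.6%, against 16.5%).

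The covered share, the percent of a gene body that lies in regions, separated the lists more clearly. Its mean over the ZNF genes was 42.2% ± 32.6 in naive and 69.3% ± 37.2 in primed regions (SD over 253 genes), against 38.8% ± 33.4 and 57.6% ± 40.96 over the 17260 coding genes. The medians were 41.2% in naive and 94.7% in primed regions, against 34.3% and 65.6% over coding genes. Whole bodies lay in naive regions for 20 ZNF genes (7.91%, against 11.8% of coding genes) and in primed regions for 121 (47.8%, against 36.7%). The naive share was above the primed share in 40 genes (15.8%, against 26.3% of coding genes) and below it in 170 (67.2%, against 54.1%). The ZNF genes were about as long as other genes, with a median body of 23.7 kb against 25.6 kb. Across the 253 genes, naive and primed shares were weakly related (Pearson's r = 0.33, Spearman's rho = 0.35, against 0.21 and 0.19 over coding genes). Neighbouring genes share regions and the genes of a chromosome share its level, so these are descriptions.

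**Figure D1:**
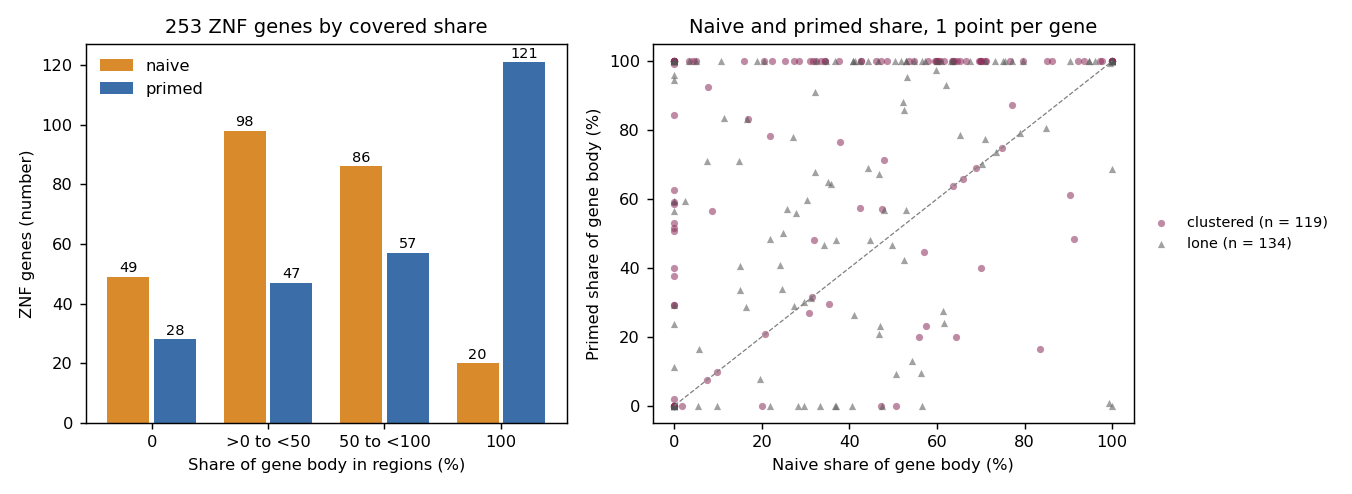
Left, number of the 253 ZNF genes by the percent of the gene body in naive (orange) and primed (blue) regions. Right, naive share (x axis, percent) against primed share (y axis, percent), 1 point per gene, circles for genes with another ZNF gene within 100 kb and triangles for the rest. The tallest bar is that of the 121 genes that lay wholly in primed regions, and the row of points along the top of the right panel shows that these genes had naive shares anywhere between 0 and 100%.

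Short genes can be missed by a region that covers a long neighbour, so the counts were also split by length. Of the 102 ZNF genes under 20 kb, 65 touched naive and 90 touched primed regions (63.7% and 88.2%, against 58.2% and 76.96% of coding genes of that length). Of the 64 genes of 50 kb or more, all 64 touched naive and 59 touched primed regions (against 96.7% and 83.6% of coding genes). The mean primed share was 74.3% in the short class and 60.4% in the long class, against 67.6% and 46.8% of coding genes.

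The regions that touched these genes differed in size between the lists. A primed region of at least 300 kb touched 76 ZNF genes (30%, against 16.8% of coding genes), and one of at least 1 Mb touched 53 (20.9%, against 9.56%). A naive region of at least 100 kb touched 4 (1.58%, against 1.59%), namely ZNF716, ZNF248, ZNF843 and ZNF18, which were looked up after the values had been seen. The lists held 61750 naive and 29994 primed regions. At least 3 ZNF genes each were touched, in whole or in part, by 12 primed regions and by 1 naive region. The same count was not made for other coding genes, so nothing particular to ZNF genes is read from it. The naive region was a 40 kb stretch of chromosome 16 (30520001 to 30560000, hg38) with ZNF768, ZNF747 and ZNF764.

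Levels differed between chromosomes. The genes lay on 19 chromosomes, with none on 13 and 21, and chromosomes 7 (34 genes), 16 (30), 1 (21) and 3 (19) held the most. On 13 of the 19 the mean naive share of the ZNF genes was above that of all coding genes of the chromosome and on 6 below it, and the primed counts were also 13 and 6. The widest primed gaps were on chromosome 4, where 8 ZNF genes averaged 71.9% ± 40.7 against 29.1% for coding genes, and on chromosome 10, where 17 averaged 88.97% ± 23.6 against 54.4% (SD over ZNF genes). On chromosome 11 the order was turned, with 38.4% ± 36.96 over 6 ZNF genes against 62.2% for coding genes. On chromosomes 20 and 22 the 9 and 4 ZNF genes averaged 97.8% and 100% in primed regions, where coding genes averaged 95.6% and 90.4%.

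In naive regions the means ran from 19.2% ± 20.6 over 13 genes of chromosome 5 to 67.5% ± 42.5 over 4 genes of chromosome 22, against 33.7% and 49.1% of coding genes. The 250 ZNF genes of chromosome 19 averaged 60.1% ± 33.6 in naive and 99.4% ± 5.54 in primed regions, on a chromosome whose coding genes averaged 47.8% and 98.1%. Without chromosomes 16, 20 and 22, which lie largely in primed NADs, the other 210 ZNF genes averaged 38.97% in naive and 64.5% in primed regions, against 37.997% and 53.99% over the coding genes there. Chromosomes 14, 17 and 21 stayed in, though their coding genes averaged 81.1%, 80.4% and 93.7% in primed regions, against 82.2% on chromosome 16.

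**Figure D2:**
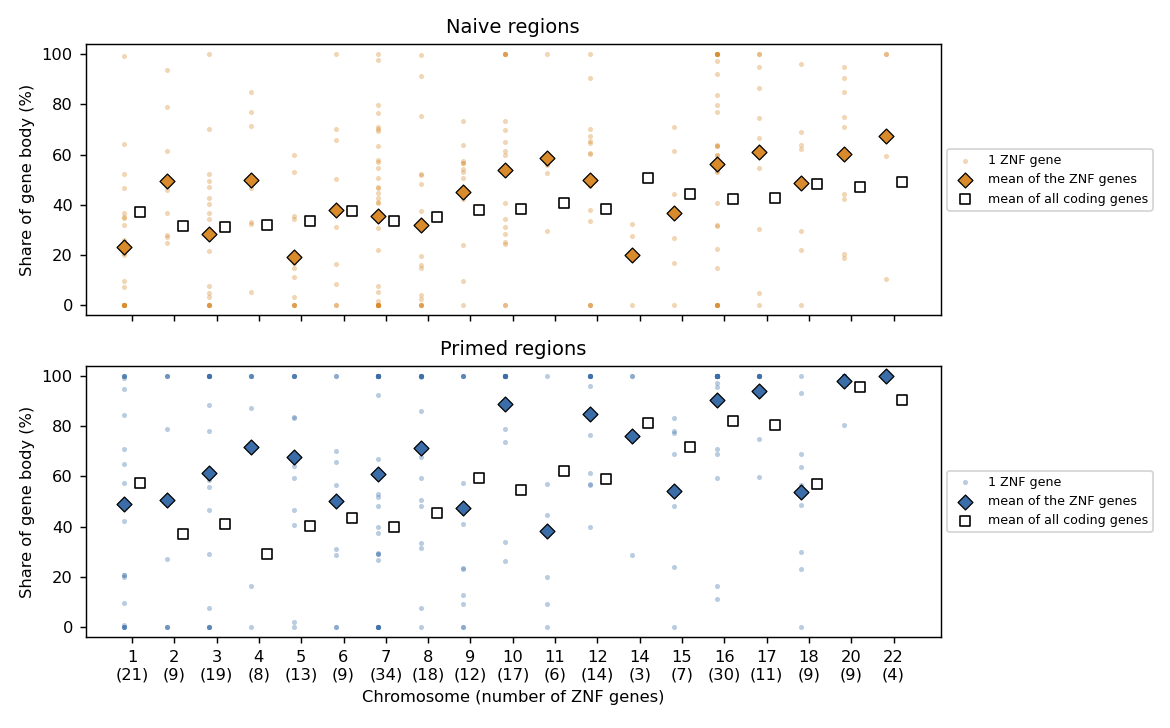
Percent of the gene body in naive (upper panel) and primed (lower panel) regions by chromosome, with the number of ZNF genes under each. Small dots are single ZNF genes, diamonds their mean and squares the mean of all coding genes of the chromosome. In the lower panel the diamond stands well above the square on chromosomes 4 and 10 and below it on chromosome 11.

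The genes were next divided into clustered genes, with gaps of at most 100 kb between the bodies of neighbouring ZNF genes, and lone genes. There were 119 clustered genes in 36 clusters and 134 lone genes. Of the clusters, 7 had 5 or more genes (45 genes in all) and 18 were pairs. In 4 pairs the bodies overlapped. One body lay inside the other in 3 of them (ZNF511 with ZNF511-PRAP1, ZNF664 with ZNF664-RFLNA, ZNF593 with ZNF593OS), and ZNF668 and ZNF646 overlapped in part. Bodies overlapped in some larger clusters too, as where the read-through gene ZNF660-ZNF197 spans ZNF660 and ZNF197. Genes of a cluster share their neighbourhood and are not independent.

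Counted gene by gene, clustered genes had more of their bodies in primed regions than lone genes, and about as much in naive regions. The mean primed share was 74.3% ± 35.6 in clustered and 64.9% ± 38.2 in lone genes, a difference of 9.40 percentage points (SD over genes). The mean naive share was 41.2% ± 33.8 in clustered and 43.2% ± 31.6 in lone genes, a difference of -2.04 points. With each cluster counted once by its span, spacers included, the means were 68.3% ± 33.2 in primed and 37.4% ± 23.7 in naive regions (SD over 36 clusters). Counted so, the primed mean was nearer that of the lone genes, and the naive mean was below theirs. Wholly in primed regions were 68 clustered (57.1%) and 53 lone genes (39.6%), against 36.7% of coding genes. Primed regions touched 109 clustered (91.6%) and 116 lone genes (86.6%), and naive regions 90 (75.6%) and 114 (85.1%). Clustered genes were shorter, with a median of 20.96 kb against 29.4 kb. The 45 genes of the larger clusters averaged 82.1% ± 31.3 in primed and 45.5% ± 34.2 in naive regions, and the 74 of smaller clusters 69.5% ± 37.4 and 38.5% ± 33.5.

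This contrast was uneven over chromosomes. On the 16 chromosomes with at least 2 clustered and 2 lone genes, clustered genes had the higher mean primed share on 7 and the higher mean naive share on 6. On chromosome 3, 11 clustered genes averaged 76.8% and 8 lone genes 40.0% in primed regions. On chromosome 7, 25 clustered genes averaged 58.1% and 9 lone genes 68.4%. Averaged within chromosomes, the primed difference was 7.32 points, and after each share was centred on the coding genes of its chromosome it was 14.5 points.

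The 7 larger clusters fell into 6 that lay mostly in primed NADs and 1 that did not. Over their whole spans, spacers included, primed regions covered 79.1% ± 28.1 and naive regions 42.9% ± 17.3 (SD over 7 clusters). The sequence around the 6 lay mostly in primed NADs too. Primed regions covered 72% to 100% of the up to 500 kb on each side, beside 77.1% to 100% of the 6 spans. The largest cluster held 8 genes from ZNF445 to ZNF501 on chromosome 3 (44431705 to 44737083). Naive regions covered 26.2% and primed regions 77.1% of its span. ZNF445, a KRAB protein that helps to maintain parental imprints, had 21.8% of its body in naive and 78.2% in primed regions. The other 7 genes were wholly in primed regions, while their naive shares ran from 0 in ZNF660 to 70.0% in ZNF35. Among these 7 is the read-through gene ZNF660-ZNF197, whose body spans ZNF660 and ZNF197. The same sequence is thus counted more than once among the 8 genes. ZNF501, at the far end, had 4.91% in naive and 100% in primed regions.

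The 7 genes from ZNF205 to ZNF597 on chromosome 16 (3112586 to 3443504) were all wholly in primed regions, 6 of them in 1 region of 330 kb. In naive regions ZNF205, ZNF75A and ZNF174 had 0, ZNF200 59.8%, ZNF213 63.9%, ZNF263 92.2% and ZNF597 100%. ZNF597 is itself an imprinted gene. Neighbouring genes of 1 primed region thus ran from 0 to 92.2% in naive share.

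A second cluster of chromosome 16, with 6 genes in 86.8 kb (30524004 to 30610775), lay inside a primed region of 2.38 Mb (29990001 to 32370000). That region touched 13 ZNF genes, from ZNF48 to ZNF267, among its 76 coding genes. Naive regions covered 58.4% of it and touched 12 of the 13. Within the cluster the naive share was 100% in ZNF768, ZNF747 and ZNF764, 97.3% in ZNF688, 22.4% in ZNF785 and 0 in ZNF689.

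Of the 7 larger clusters, 3 lay within 2 Mb of a chromosome end. The 7 genes from ZNF605 to ZNF268 on chromosome 12 (132918306 to 133214832) had 66.3% of their span in naive and 83.1% in primed regions. ZNF26, with the largest difference, had 33.5% in naive and 100% in primed regions. In 2 of the 7 the naive share was the higher: ZNF84, with 90.3% in naive and 61.2% in primed regions, and ZNF268, the last gene, with 70.0% and 40.0%. ZNF10, the source of the KRAB repressor domain used in many engineered repressors and named here after its values were seen, had 65.3% and 100%. The 5 genes from ZNF595 to ZNF721 on chromosome 4 (53321 to 499156) had 61.9% of their span in naive and 95.5% in primed regions. ZNF721 had 32.4% and 100%, and ZNF595 47.8% and 71.3%.

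On chromosome 8, ZNF251 to ZNF16 (144720909 to 144950880) had 35.2% of the span in naive and 82.6% in primed regions. ZNF16 had 4.29% in naive and 100% in primed regions, and ZNF250 beside it 91.4% and 48.3%. Over all 37 ZNF genes within 2 Mb of a chromosome end, the mean share was 45.8% in naive and 79.9% in primed regions, against 39.2% and 82.3% for the 1132 coding genes there. For the 216 ZNF genes farther in, it was 41.6% and 67.5%, against 38.7% and 55.8% for coding genes.

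The exception was the cluster of 6 genes from ZNF786 to ZNF783 on chromosome 7 (149069641 to 149284994), with 23.4% of its span in naive and 18.6% in primed regions. ZNF786 had 1.71% in naive and 0 in primed regions, ZNF425 30.7% and 26.9%, and ZNF398 35.3% and 29.4%. ZNF282 had 47.1% in naive regions and 0 in primed regions, ZNF212 the opposite arrangement with 0 and 62.7%, and ZNF783 was touched by neither list. All regions that touched the cluster were single 10 kb bins. Around it, primed regions covered 4% of the 500 kb to its left and 26% of the 500 kb to its right, and naive regions 21.9% and 26%.

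The same chromosome holds the opposite case. A primed region of 2.14 Mb (63400001 to 65540000) touched 11 ZNF genes, from ZNF722 to ZNF92, among 26 coding genes. All 11 were also touched by naive regions, with shares between 40.8% and 97.8%. The 4 genes from ZNF107 to ZNF117 inside it had 73.9% of their span in naive and 100% in primed regions.

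**Figure D3:**
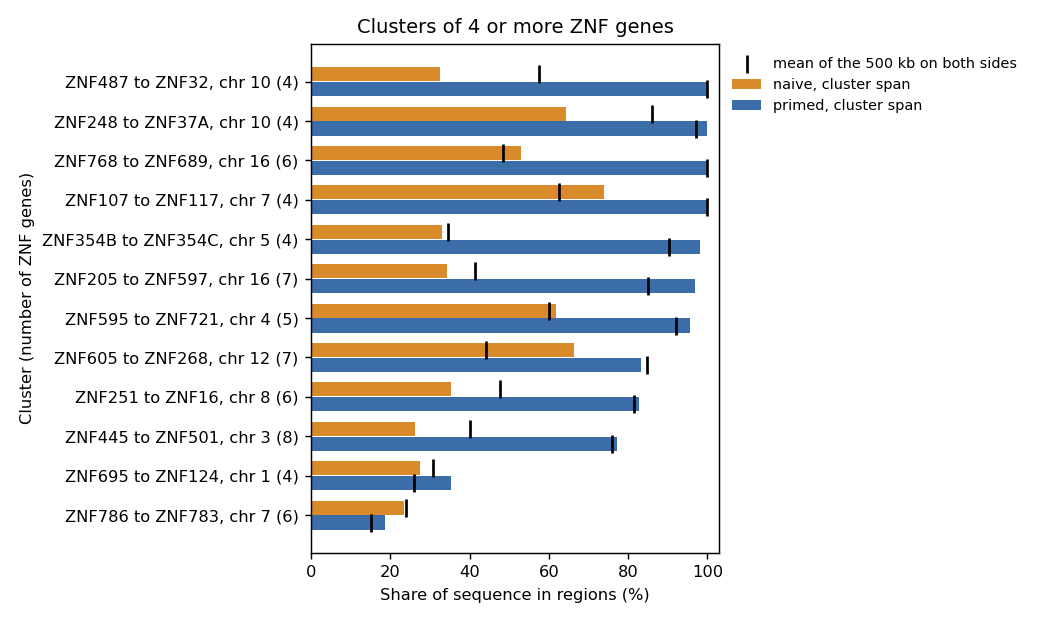
Percent of the sequence from the first to the last gene that lay in naive (orange) and primed (blue) regions, for the 12 clusters of 4 or more ZNF genes, ordered by the primed share. Black marks give the mean of the stretches of up to 500 kb on both sides. Both bars are short for the cluster from ZNF786 to ZNF783, while 4 clusters at the top lay wholly in primed regions.

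**Figure D4:**
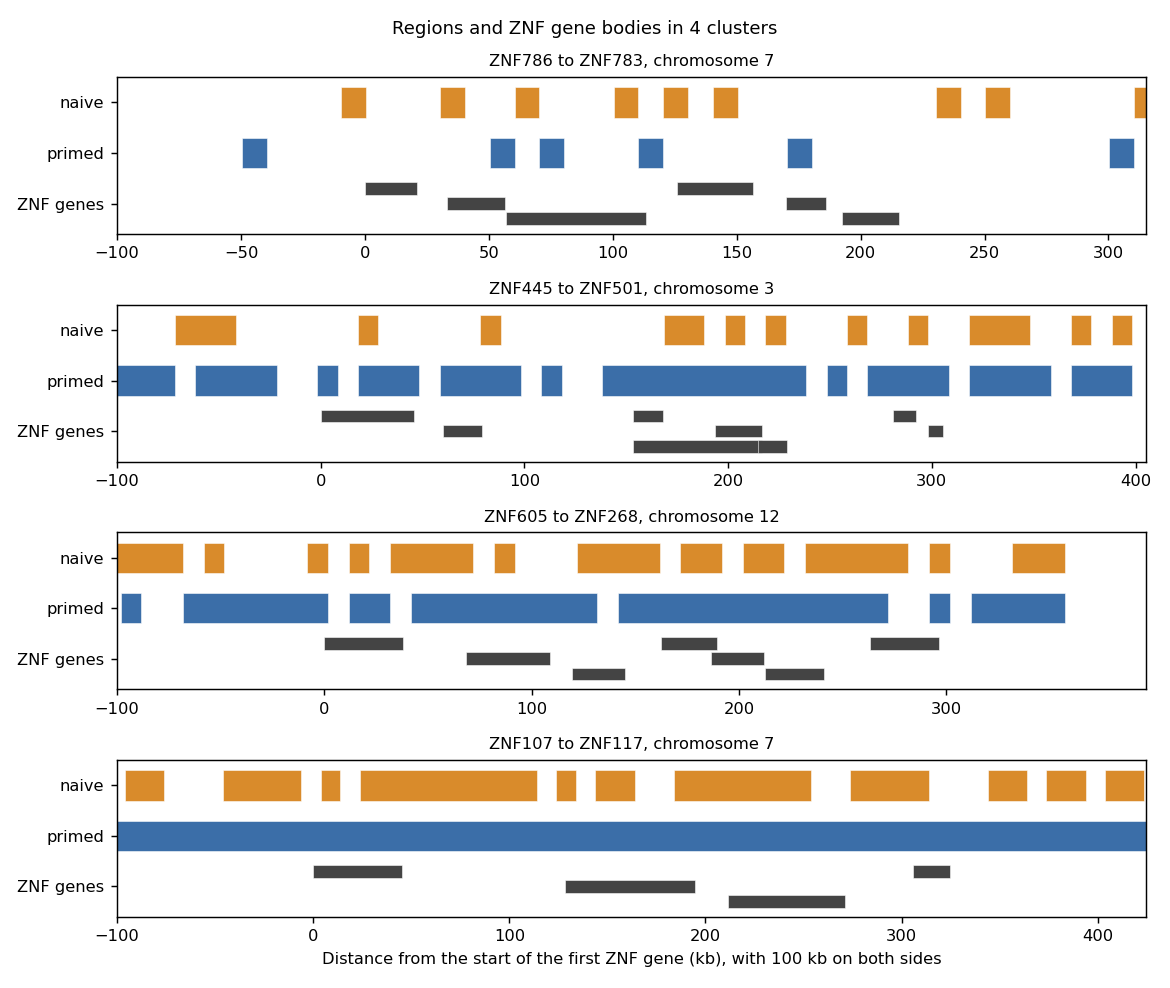
Naive regions (orange), primed regions (blue) and ZNF gene bodies (grey, stacked in 3 rows where close) along 4 clusters, with the distance in kb from the start of the first gene. Primed regions run on across the cluster from ZNF107 to ZNF117 as 1 block and are single bins across the cluster from ZNF786 to ZNF783.

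Taking each of the 36 clusters as 1 unit, the primed share of the span was above the naive share in 30 and below it in 5. Of single coding genes, the primed share was above in 54.1% and below in 26.3%. Spans hold spacers as well as genes, so clusters and single genes are not like for like. The primed share of the span was 100% in 11 clusters with 34 genes, and no cluster lay wholly in naive regions (36.7% and 11.8% of single coding genes did). Chromosome 10 had 2 such clusters of 4 genes on either side of the centromere. ZNF248 to ZNF37A lay in a primed region of 2.95 Mb and ZNF487 to ZNF32 in one of 4.36 Mb, with naive shares of the span of 64.3% and 32.5%. In the first, ZNF33A had 100% of its body in regions of both lists. ZNF33B, its close relative across the centromere, had 59.9% in naive and 100% in primed regions. Reads from such near-identical copies may not be placed uniquely, so their shares are uncertain, as are those of ZNF705B, ZNF705D and ZNF705G on chromosome 8. For the last 3 the naive shares were 52.4%, 2.53% and 14.9% and the primed shares 85.9%, 59.3% and 33.4%. ZNF33B and the ZNF705 genes were added after their values had been seen.

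Gene bodies and their surroundings were then compared. The 100 kb on each side of a ZNF gene lay in naive regions for 40.9% and in primed regions for 66.9% on average, against 37.1% and 55.98% around coding genes. These flanks were thus near the values of the bodies, 42.2% and 69.3%. In naive regions the body had the higher share in 125 genes and the flanks in 128 (49.4% and 50.6%, against 49.01% and 50.9% of coding genes). In primed regions the body was higher in 112 and the flanks in 71, with 70 equal (44.3% and 28.1%, against 45.6% and 35.6%). The median difference was -0.47 points in naive and 0 in primed regions. In clusters of 2 to 4 genes the naive share was lower in the body than in the flanks for 49 of 74 genes, with a median difference of -12.2 points. Clusters of 5 or more did not share this: the naive share was higher in the body for 24 of 45 genes, with a median difference of 1.39 points. In lone genes it was higher in the body for 76 of 134, with a median difference of 7.21 points.

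Start sites were placed with RefSeq promoter windows of GRCh38.p14 (250 bases before to 50 after the start), which matched 208 of the 253 genes. A naive region held the start of 90 (43.3%, against 40.6% of 13665 coding genes) and a primed region that of 161 (77.4%, against 62.3%). Both lists held 72 starts, naive regions alone 18, primed regions alone 89 and neither 29, which is 34.6%, 8.65%, 42.8% and 13.9% (28.5%, 12.1%, 33.8% and 25.6% of coding genes). Among clustered genes the starts were in naive regions for 47 of 101 and in primed regions for 79, and among lone genes for 43 and 82 of 107. None of the 18 ZNF genes of chromosome 8 was matched. The start-site and promoter values therefore leave out the cluster from ZNF251 to ZNF16.

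The ZNF promoters were rich in the dinucleotide CG, the main target of DNA methylation. At least 15 CG (a search for the letters CG, which read the same on both strands) were found in 171 of the 208 windows (82.2%), against 66.2% of windows of the same length at coding genes. At least 1 was found in 99.0% against 97.97%. The median number of CG was 23 in windows in both lists, 23 in naive regions only, 24 in primed regions only and 24 in neither. By gene body, the 37 ZNF genes with fewer than 15 CG averaged 45.8% in naive and 75.7% in primed regions, and the 171 others 42.6% and 67.9%. Coding genes with fewer than 15 CG averaged 40.0% and 56.5%, and those with 15 or more 38.0% and 57.0%.

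The 200 bases before the start are printed for 1 gene of each class, to show what the sequence at such starts looks like, with CG in capitals. The 4 genes were chosen after their values were seen, and the sequences are from RefSeq. The start of ZNF282 lay in a naive region only, that of ZNF239 in a primed region only, that of ZNF33A in regions of both lists and that of ZNF783 in neither.

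ZNF282, chr7:149195346-149195545, plus strand: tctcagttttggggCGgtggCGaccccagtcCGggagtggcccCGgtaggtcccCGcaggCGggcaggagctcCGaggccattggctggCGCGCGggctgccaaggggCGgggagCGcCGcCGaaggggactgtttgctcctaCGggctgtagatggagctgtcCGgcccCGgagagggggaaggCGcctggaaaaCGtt

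ZNF239, chr10:43574617-43574816, minus strand: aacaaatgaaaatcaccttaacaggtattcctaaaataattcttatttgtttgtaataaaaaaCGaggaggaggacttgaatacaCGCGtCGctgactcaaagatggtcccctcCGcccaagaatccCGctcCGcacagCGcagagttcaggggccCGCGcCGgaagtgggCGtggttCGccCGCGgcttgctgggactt

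ZNF33A, chr10:38010475-38010674, plus strand: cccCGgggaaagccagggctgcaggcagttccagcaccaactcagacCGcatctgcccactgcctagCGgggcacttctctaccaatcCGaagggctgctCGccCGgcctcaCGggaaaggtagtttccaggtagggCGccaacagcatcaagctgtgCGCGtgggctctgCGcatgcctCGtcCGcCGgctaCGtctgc

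ZNF783, chr7:149261996-149262195, plus strand: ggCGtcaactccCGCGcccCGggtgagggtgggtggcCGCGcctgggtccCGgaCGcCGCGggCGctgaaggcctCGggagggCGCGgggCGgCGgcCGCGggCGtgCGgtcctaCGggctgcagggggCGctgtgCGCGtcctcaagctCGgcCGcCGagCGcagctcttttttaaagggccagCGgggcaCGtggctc

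These stretches held 19 CG in ZNF282, 15 in ZNF239, 15 in ZNF33A and 30 in ZNF783, with a GC content of 71.0%, 51.5%, 65.5% and 77.5%. ZNF282 and ZNF783 belong to the same sparsely covered cluster. A region is at least 10 kb long, so the lists locate a start no more finely than that.

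Among the ZNF genes the states differed most where 1 list held the whole body and the other none of it. The 10 longest genes with 100% in primed and 0 in naive regions were ZNF839, ZNF239, ZNF75A, ZNF623, ZNF232, ZNF684, ZNF660, ZNF740, ZNF394 and ZNF879, from 24.9 kb to 11.3 kb long. Of these, 7 were clustered. ZNF839 lay in a primed region of 400 kb and ZNF239 in one of 4.36 Mb, whereas ZNF623, ZNF684 and ZNF740 lay in regions of 30 kb. The naive share of the 100 kb on each side of the 10 genes ran from 20.1% at ZNF394 to 48.9% at ZNF623. Naive regions were thus present beside each of them.

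The 10 largest differences the other way ranged from 100 points at ZNF80 to 43.1 points at ZNF250. ZNF80 had 100% of its 2.95 kb in naive regions and 0 in primed regions. ZNF281, a repressor that works with NANOG in embryonic stem cells, had 99.3% in naive and 0.71% in primed regions (chromosome 1, 200404951 to 200410036). The body of ZNF281 is 5.09 kb long and touched 1 naive region of 20 kb. Its start site nevertheless lay in a primed region and in no naive region, as did that of ZNF202. ZNF23 had 83.6% in naive and 16.4% in primed regions. Its cluster neighbour ZNF19, looked up afterwards, had 0 and 59.2%. ZNF483 had 56.6% in naive regions and 0 in primed regions, ZNF853 50.6% and 0, ZNF804A 47.4% and 0, and ZNF282 47.1% and 0. ZNF202, a repressor of lipid metabolism genes, had 56.3% and 9.35%, ZNF124 64.2% and 19.8%, and ZNF250 91.4% and 48.3%. ZNF804A, known for its association with schizophrenia, is the longest of them, with 341 kb and 8 separate naive regions, and no primed region touched its flanks of 100 kb either.

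The 12 genes in neither list included ZNF322, ZNF783, ZNF475, ZNF316, ZNF397, ZNF639, ZNF648, ZNF620, ZNF311 and ZNF774, the 10 longest, from 25.4 kb to 10.6 kb. Around ZNF311, 17.8% of the flanks lay in naive and 85.4% in primed regions, and around ZNF475 10% and 5%. Whole bodies lay in both lists for 18 genes (7.11%, against 8.68% of coding genes). The 10 longest were ZNF33A, ZNF207, ZNF384, ZNF479, ZNF488, ZNF74, ZNF598, ZNF597, ZNF165 and ZNF629, from 57.3 kb to 8.75 kb. The primed regions that held them were between 40 kb (ZNF165) and 4140 kb (ZNF479) long. ZNF207, a spindle assembly factor, was held by a naive region of 60 kb and a primed region of 4010 kb. ZNF598, a ubiquitin ligase that acts on stalled ribosomes, was held by regions of 40 kb and 440 kb.

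A list of 24 ZNF genes with known roles, 20 of them lone, was read separately. All 24 touched naive regions and 21 touched primed regions, against 76.1% and 79.7% of all coding genes and 96.7% and 83.6% of coding genes of 50 kb or more. Several of the listed genes are long, and nothing particular to the list is read from these counts. In naive regions only were ZNF143, an activator of small nuclear RNA and coding promoters (29.6% of the body), ZNF330, a nucleolar protein (33.2%), and ZNF804A. Among regulators of development, ZNF423 had 59.8% of its 372 kb in naive and 97.3% in primed regions, ZNF521 62.1% and 93.1%, and ZNF462 54.4% and 12.9%. ZNF750, a regulator of epidermal differentiation, had 94.6% and 100%. ZNF217, an oncogene amplified in breast cancer, had 90.4% and 100%, and ZNF703, another, 99.6% in each. ZNF335, mutated in a form of microcephaly, had 42.5% and 100%, and ZNF469, mutated in brittle cornea syndrome, 32.1% and 91.2%.

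The other listed genes included ZNF384 with 100% in each list, ZNF24 with 63.8% in each and ZNF148 with 49.7% in naive and 46.6% in primed regions. ZNF131 had 11.4% and 83.6%, ZNF365 24.5% and 33.9%, and ZNF827, which binds telomeres in cells that maintain them by recombination, 5.52% and 16.6%. ZNF593, a ribosome biogenesis factor, had 9.63% of its 0.966 kb in each list, where a region ends inside the gene, so its share says little. ZNF423 touched 10 naive regions and ZNF521 8, while ZNF462 touched 4, ZNF365 3 and ZNF827 1.

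Of 16 genes for silencing partners of KRAB proteins, 16 touched naive and 14 touched primed regions, against 76.1% and 79.7% of coding genes. The coding shares were 81.1% and 79.3% at 20 to 50 kb, and 96.7% and 83.6% at 50 kb or more. Of the 16, 3 lie on chromosome 19, which those coding shares leave out. Nothing particular to the 16 genes is read from these counts. TRIM28, SETDB1 and the HP1 genes were picked from the 16 after their values were seen. TRIM28, the co-repressor itself, is on chromosome 19 and had 100% in each. SETDB1, the histone methyltransferase, had 64.3% in naive and 22.03% in primed regions. The HP1 genes CBX1, CBX3 and CBX5 had 68.2%, 29.7% and 39.0% in naive regions and 68.2%, 70.3% and 100% in primed regions. In naive regions only were the chromatin remodeller gene SMARCAD1 (35.8%) and the histone deacetylase gene HDAC2 (52.5%).

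Related families of the same 21 autosomes were read the same way. The 14 ZSCAN genes averaged 52.7% ± 35.8 in naive and 57.4% ± 33.4 in primed regions, the 7 ZKSCAN genes 32.6% ± 30.1 and 82.9% ± 29.2, and the 15 ZFP genes 45.3% ± 40.8 and 73.0% ± 31.6 (SD over genes). The 37 ZBTB genes, whose proteins pair zinc fingers with a BTB domain, averaged 32.7% ± 31.8 and 61.8% ± 37.9. The 15 PRDM genes, with a SET-like domain, averaged 25.8% ± 17.7 and 38.8% ± 43.2. ZNF pseudogenes, 66 in number with a median length of 1.54 kb, averaged 50.3% ± 45.9 and 66.98% ± 45.2, and naive regions touched 39 and primed regions 48 of them (58.2% and 76.96% of coding genes under 20 kb were touched).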

How the data were processed

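The authors deposited 1 list of regions per cell state, which the labels tie to the 6 libraries of that state. Each list gives chromosome, start and end on hg38 and no score or p-value. The submitters' processing notes list BWA, SAMtools (1.10) and SICER and do not say what each did. How replicates were pooled, the settings of region calling and the depth: not given in the sources used here. No start and no end before a chromosome's last region lay off the 10 kb grid, and no regions touched.

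Covered shares were computed with numpy 2.4.6 and pandas 2.3.3 under Python 3.11.15 by code tested on simulated data, scipy 1.17.1 gave the Wilson interval (confidence level 0.95) beyond which a mean counted as moved, and figures were drawn with matplotlib 3.10.9. From the gene table, 789 genes unplaced or on scaffolds were left out. Distances to chromosome ends were taken to the last region of either list. Genes were named by a rule: the ends and largest difference of each cluster of 5 or more, the 10 largest differences each way, the 10 longest in neither or wholly in both lists, and lists of known roles and of partners; other genes, among them the remaining genes of described clusters, were named after their values were seen. Members, lists and rules were chosen with earlier results of these data known. No test was run, since each state has 1 list, and shares of all coding genes stand beside those of ZNF genes.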

Additional observations from a re-analysis of the deposited data

How the results depend on the processing

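No paired analysis was possible because the replicates of a state were pooled into 1 list before deposit, and no replicate could be left out for the same reason. Of 56 values recomputed under planned and added alternatives, 47 stayed close to the reported ones, 8 moved and 1 changed sign. A count was called close within a factor of 1.5, and a mean inside its Wilson interval. That interval treats a mean share as a portion of independent genes, though neighbouring genes share regions, so it serves only as a rough limit. A clustered minus lone difference was called close inside a band joined from the Wilson intervals of both means. These limits are wide. With regions of 20 kb or more alone, a fall from 204 to 140 ZNF genes in naive regions still counted as close. When at least 50% of the body had to be covered, 106 of the 253 ZNF genes lay in naive regions (33.1% of coding genes did). In primed regions only were 89 (33.9% of coding genes). With regions of 20 kb or more alone, 73 genes lay in primed regions only (28.9% of coding genes). The mean share was then 30.3% in naive and 63.2% in primed regions, against 26.0% and 51.8% over coding genes. The clustered minus lone difference in naive share turned to 0.57 points, so that its direction is not settled. With regions up to 20 kb apart merged, the means were 61.8% in naive and 78.6% in primed regions, against 56.2% and 68.5% over coding genes. With 10 kb added on both sides of the body, 22 genes lay in primed regions only (8.02% of coding genes). The clustered minus lone difference in primed share was between 6.10 points (gaps merged) and 14.5 points (centred by chromosome) over these settings and those for the gap, the neighbours, the smallest cluster, chromosomes 16, 20 and 22, the read-through genes and the within-chromosome mean. The last 3 of these settings were chosen after seeing the data. All these settings count gene by gene. With 1 value per cluster, the 36 spans averaged 68.3% in primed regions, against 64.9% for the bodies of lone genes. The setting for read-through genes left out ZNF660-ZNF197, ZNF511-PRAP1, ZNF664-RFLNA and also ZNF593OS. Depth is unknown, and the 10 kb grid limits what can be said of short genes.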
